A study of Schizosaccharomyces pombe with 6 samples.

Results

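The 2 arrays labelled biological replicate 1, one of cells kept in YEPD and one of cells kept in YEPME, were compared with the 4 arrays labelled replicates 2 and 3, so that 2 of the 6 arrays of the study stand against the other 4. The arrays were Affymetrix Yeast Genome 2.0 chips, which carry probe sets for the fission yeast Schizosaccharomyces pombe and for the budding yeast Saccharomyces cerevisiae. Per the growth protocol, every array held RNA of a mixture of 2 haploid fission yeast strains, the h+ strain YHL6381 and the h- strain SPQ-01. Each strain had been cultured alone at 30 °C in YEPD until the OD600 reached 5.0, and the mixed cells (1:1) then spent 90 min in fresh YEPD or YEPME, in a study of sexual flocculation, in which h+ and h- cells clump together. The groups used here are therefore YEPD replicate 1, YEPME replicate 1, YEPD replicates 2 and 3, and YEPME replicates 2 and 3, and the growth protocol in the labels gives all of them the same pair of strains, temperature and time. The strain label of the YEPME samples nevertheless reads diploid, within replicate 1 as within replicates 2 and 3. In the sample labels YSD stands for YEPD and YSM for YEPME, and the design text has these codes reversed. A swap of the media would not touch the comparison of the sets, which weighs both media equally, but would exchange the values given for YEPD and YEPME. The labels do not say when or where each replicate was grown, extracted, labelled or scanned, so that the state of the cultures and the handling of the arrays cannot be told apart.

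Fission yeast grown on ample glucose switches off genes for other carbon sources, largely through the cAMP and protein kinase A pathway and the repressor Scr1, and switches them on as glucose runs out. Iron uptake is set by the repressor Fep1, which shuts iron uptake genes when iron is plentiful, and by Php4, which shuts genes of iron-using proteins when iron is scarce. Growth rate sets the demand for new ribosomes, and ribosome assembly genes are known to be expressed most in fast-growing cells.

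The comparison covered 2896 S. pombe genes that each have their own probe set, and levels are the deposited log2 values, in which a difference of 1 is a factor of 2. Differences are replicate 1 minus replicates 2 and 3, averaged over both media, from limma with the medium as a block and Benjamini-Hochberg adjustment over all 2896 genes, and they carry their standard error (SE). A gene was called at an adjusted p under 0.05. Where array values are listed, they are in the order of replicates 1, 2 and 3 within each medium. Each set holds 1 or 2 arrays per medium, which limits the precision, and the p-values rest on how far arrays of one set differ, not on further culture sets. Of the 2896 genes, 2823 were above background on every array and 15 on none, where background was the 95th percentile of the S. cerevisiae probe sets on an array.

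The probe sets that target no fission yeast gene also differed between the sets. The median of the 2600 S. cerevisiae probe sets was 4.03 and 3.99 in replicate 1 and between 3.27 and 3.29 on the other 4 arrays, and the background limit was 5.60 and 5.59 against 4.78 to 4.81. The median of the S. pombe genes was 10.22 on both replicate 1 arrays and 10.28 to 10.31 on the others. Dim signal was thus brighter on both replicate 1 arrays, with no overlap, while the middle of the S. pombe genes was slightly dimmer. The median difference of the S. cerevisiae probe sets was 0.721, their 1st and 99th percentiles were -0.105 and 1.579, and 525 of them differed at least 2-fold. This guide reaches dim signal only, since 2584 of the 2600 had a mean level under 6, against 86 of the 2896 S. pombe genes. Among probe sets with a mean level of 4 to 6, 3 of 81 S. pombe genes lay above the 99th percentile of the 731 S. cerevisiae probe sets and 25 lay below the 1st.

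**Figure D1:**
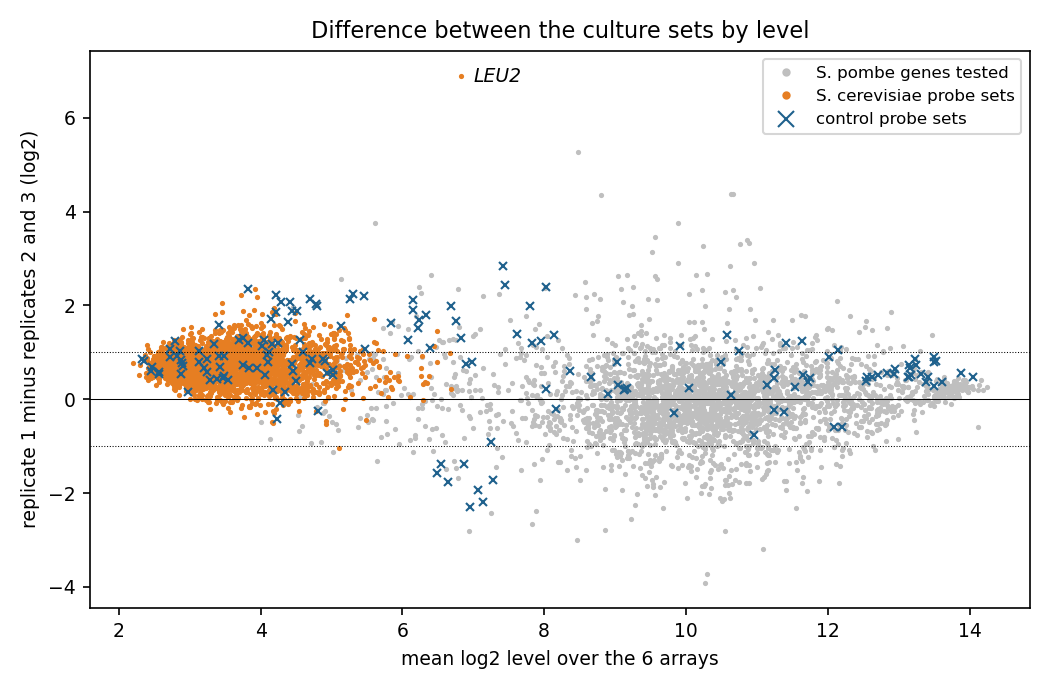
Difference between the sets (replicate 1 minus replicates 2 and 3, log2, vertical axis) against the mean log2 level over the 6 arrays (horizontal axis) for S. pombe genes, S. cerevisiae probe sets and control probe sets, 1 point each; dotted lines mark a 2-fold difference. The S. cerevisiae points crowd at the left around a median of 0.721, LEU2 stands alone at 6.89, and the S. pombe genes spread to both sides of 0 at levels the guide does not reach.

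Spiked control transcripts split the same arrays. The polyA spikes, which are added to the RNA before labelling, were higher in replicate 1, with median differences of 1.36 for dap, 2.03 for lys, 1.72 for phe and 1.66 for thr, and 9 of the 9 probe sets of each went that way. On replicates 2 and 3 the medians of lys (3.58 to 4.09), phe (4.30 to 4.70) and thr (4.48 to 4.64) lay below the background limit. Their differences are therefore set against background signal, and only dap (6.30 to 6.81) was above the limit there. The median of the trp probe sets lay below the background limit on every array, so that no trp spike was detected. Its difference of 0.92 (6 of 6 probe sets higher) is one of background signal, near the 0.721 of the S. cerevisiae probe sets. Of the hybridization spikes, which are added after labelling, bioB was lower in replicate 1 on 9 of 9 probe sets (median difference -1.72), while bioC, bioD and cre differed by 0.23, 0.42 and 0.52. The bioB median of YEPME replicate 1 (5.38) lay below that array's background limit of 5.59. That of YEPD replicate 1 (5.96) lay just above its limit of 5.60. Control probe sets for fission yeast rRNA were higher on 7 of 7 (0.72). The gap between 3′ and 5′ probe sets of the act1 control, a measure of RNA quality and cDNA length, was 0.13 and 0.07 in replicate 1 and 0.39 to 0.53 on the other arrays, and that of srb4 was 0.67 and 0.37 against 1.27 to 1.68, whereas that of ura4 was 1.59 and 1.54 against 1.42 to 1.67. For tfiid it was 0.70 and 0.73 against 1.01 to 1.15, and for rip1 0.74 and 0.53 against 0.74 to 0.82. The 2 replicate 1 arrays parted for gpd3, with 0.89 in YEPD and 1.72 in YEPME against 1.08 to 1.34. The deposited values of replicate 1 also carry up to 10 significant digits and those of replicates 2 and 3 up to 6. The part of these differences in the gene differences below was not tested.

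One S. cerevisiae probe set departed from the others. LEU2, a budding yeast gene for leucine synthesis that is widely used as a selectable marker in leucine-requiring fission yeast strains, read 12.13, 5.25 and 4.28 in YEPD and 10.73, 4.56 and 4.06 in YEPME. Both replicate 1 arrays were high. Of the other 4 only YEPD replicate 2 was above its background limit, so that the difference of 6.89 between the measured values is set largely against background signal. The labels name the same 2 strains for all 6 arrays and list no marker gene. LEU2 was singled out after its values were seen. Whether the strains of the sets carried the same markers was not tested, and any such strain difference cannot be told apart from culture state and array handling.

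The sets were far apart relative to the spread within replicates 2 and 3. Limma called 1013 genes higher (35.0%) and 1043 lower (36.0%) in replicate 1, and 203 (7.01%) and 236 (8.15%) of them also differed at least 2-fold. Without each array in turn, 842 to 1189 genes were higher and 895 to 1201 lower. The median absolute difference over all genes was 0.413 between the sets and 0.033 between replicates 2 and 3. Between replicates 2 and 3 limma called 0 genes, none differed 2-fold, and the largest difference was 0.96. That fit takes its spread partly from the replicate 1 arrays, and without either of them it called 17 genes. The 2 arrays of replicate 1 did not overlap with the other 4 for 1116 genes (38.5%) where they were higher and 1108 (38.3%) where they were lower. Of the 439 genes called at 2-fold, 438 did not overlap, which follows largely from a call made on the same arrays. Over all genes the median difference was -0.002. The counts of the gene lists below are to be read beside the shares of all genes, 35.0% higher and 36.0% lower.

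All 2056 called genes had the same sign in both media, and 308 of the 439 called at 2-fold differed at least 2-fold in each medium. In this fit a difference between the media enlarges the error, and genes of opposite sign are hardly called. The shared sign of the called genes thus follows largely from the call. Over all 2896 genes, called or not, 1235 were higher and 1227 lower in both media. The size of the difference often was not the same on the YEPD and the YEPME array of replicate 1. A limma interaction test called 1344 genes (46.4%), 551 of them with a higher set difference in YEPME. Replicate 1 has 1 array per medium, so that this test takes its spread from replicates 2 and 3 and assumes that each lone array varies like them. It sets 2 single arrays apart and cannot show that the set difference depends on the medium. Without YEPD replicate 2 the test called 279 genes higher and 348 lower, and without YEPD replicate 3 it called 256 and 336.

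**Figure D2:**
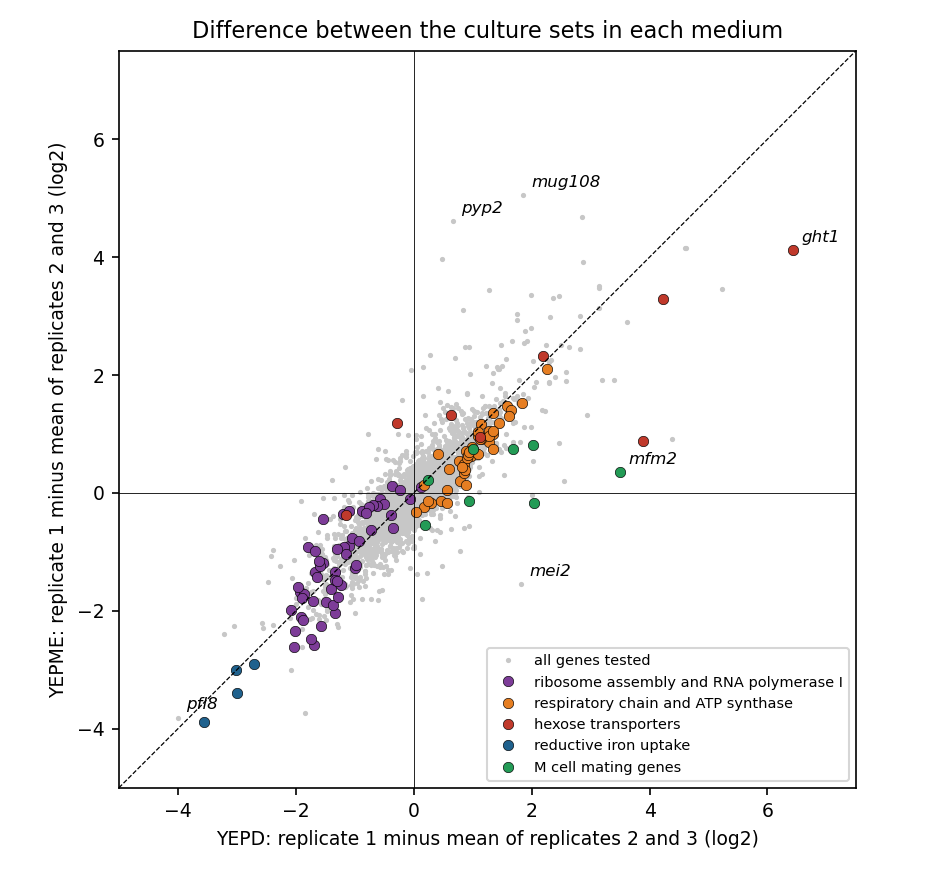
Difference between the sets (replicate 1 minus the mean of replicates 2 and 3, log2) in YEPD (horizontal axis) and in YEPME (vertical axis), 1 point per gene, with 5 gene lists coloured; on the dashed line both media give the same difference. Reductive iron uptake genes lie near the line at the lower left, ribosome assembly genes below 0 in both media with few exceptions, and ght1 at the upper right, while pyp2, mug108, mfm2 and mei2 stand off the line.

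Most genes for sugar transport were higher in replicate 1. Of the 8 measured hexose transporter genes, 6 were higher, 1 was lower and 1 was not called, where 35.0% and 36.0% of all genes were higher and lower, and the median difference was 1.65 against -0.002 over all genes. ght1 (SPCC548.07C) had the largest difference of any gene tested. Its levels were 12.94, 6.39 and 6.60 in YEPD and 11.04, 6.72 and 7.14 in YEPME. Both replicate 1 arrays were far above the other 4, by 5.28 ± 0.53 (limma adjusted p = 7.05e-04), a 38.8-fold change, and the excess was 6.44 in YEPD and 4.11 in YEPME, with 1 replicate 1 array behind each value. ght4 (SPBC1683.08) read 12.63, 8.38 and 8.42 in YEPD and 12.15, 8.81 and 8.91 in YEPME, with no overlap between the sets, a difference of 3.76 ± 0.22 (adjusted p = 1.43e-04). ght3 (SPAC1F8.01) read 10.50, 6.64 and 6.60 in YEPD and 8.69, 7.75 and 7.88 in YEPME, so that the YEPD array of replicate 1 stood well apart and the YEPME array less so (2.38 ± 0.67, adjusted p = 0.0248). It differed by 3.88 in YEPD and 0.88 in YEPME, and its call was lost when either YEPD array of replicates 2 and 3 was left out. It was also lost with each replicate number as a level of its own (adjusted p = 0.0524).

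The other transporters differed less. ght7 (SPBC1348.14C) read 7.66, 5.52 and 5.41 in YEPD and 7.89, 5.57 and 5.56 in YEPME, close to its background in replicates 2 and 3, and was higher in replicate 1 by 2.26 ± 0.06 (adjusted p = 3.83e-05). ght5 (SPCC1235.14), for the main high-affinity glucose transporter, read 14.07, 12.91 and 12.96 in YEPD and 13.93, 12.98 and 12.98 in YEPME, a tight difference of 1.04 ± 0.06 (adjusted p = 1.42e-04), and ght6 (SPCC1235.13) differed by 0.98 ± 0.19 (adjusted p = 0.0067) at levels near background. ght2 (SPBC4B4.08) went the other way, with 10.56, 11.68 and 11.73 in YEPD and 11.11, 11.45 and 11.51 in YEPME and a difference of -0.76 ± 0.18 (adjusted p = 0.0139). ght8 (SPCC548.06C) read 11.89, 12.19 and 12.16 in YEPD and 13.25, 12.07 and 12.04 in YEPME. The YEPD array of replicate 1 was below replicates 2 and 3 and the YEPME array was above them, and the difference over both media was not called (0.46 ± 0.33, adjusted p = 0.265).

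**Figure D3:**
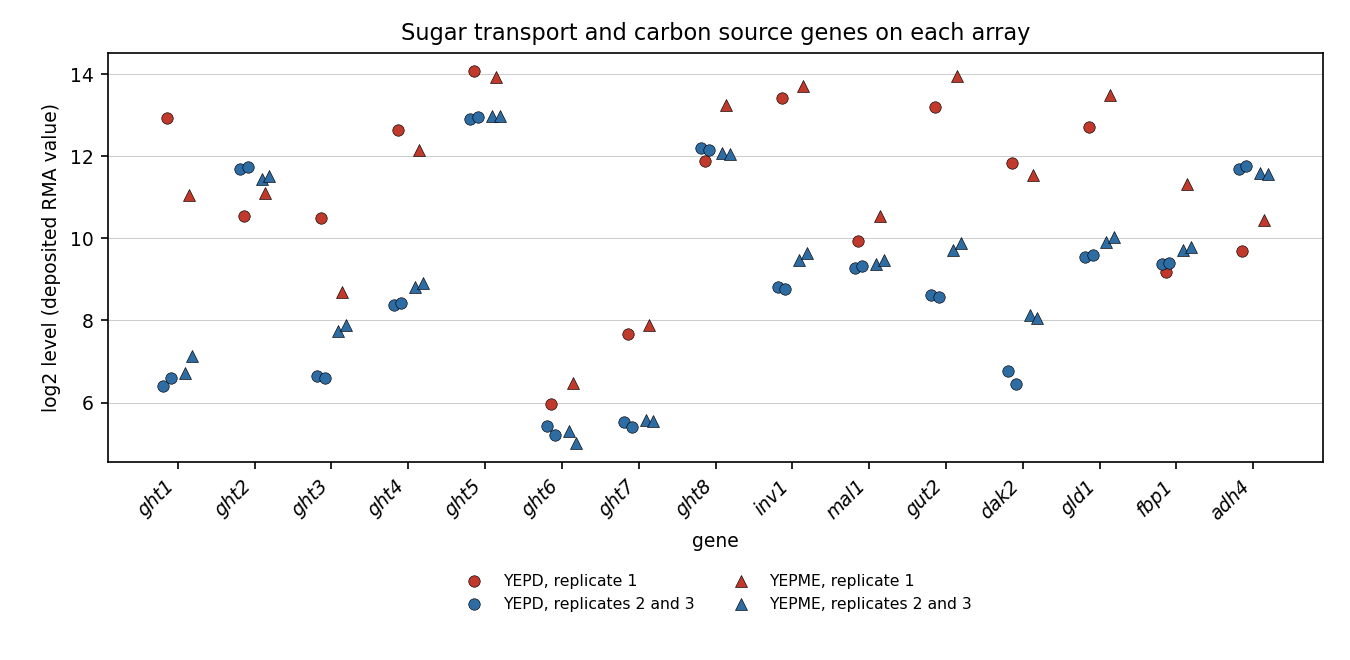
Deposited log2 level (vertical axis) of 15 sugar transport and carbon source genes on each array, with replicate 1 in red, replicates 2 and 3 in blue, YEPD as circles and YEPME as triangles. For ght1, ght4, inv1, gut2, dak2 and gld1 both red points lie well above the 4 blue ones, for ght2 and adh4 both lie below, and for ght8 and fbp1 the red points fall on either side.

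Most genes for enzymes that use other sugars and glycerol were higher as well. Of 6 measured sugar and starch hydrolysis genes, 5 were higher and 1 was lower (median 0.87). inv1 (SPCC191.11), for invertase, which splits sucrose outside the cell and is a textbook glucose-repressed gene, read 13.41, 8.82 and 8.77 in YEPD and 13.70, 9.46 and 9.64 in YEPME. Both replicate 1 arrays exceeded the others by a 20.9-fold mean (4.38 ± 0.12, adjusted p = 3.91e-05). mal1 (SPBC1683.07), for a maltase, differed by 0.87 ± 0.12 (adjusted p = 0.0021) and meu7 (SPBC16A3.13), for an amylase-like protein, by 1.34 ± 0.21 (adjusted p = 0.0034).

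Among 9 measured genes of glycerol and acetate use and gluconeogenesis, 6 were higher and 2 lower (median 0.74). gut2 (SPCC1223.03C), for the mitochondrial glycerol-3-phosphate dehydrogenase, read 13.20, 8.63 and 8.58 in YEPD and 13.96, 9.72 and 9.88 in YEPME, a difference of 4.38 ± 0.12 (adjusted p = 3.83e-05). The glycerol dehydrogenase gene gld1 (SPAC13F5.03C) read 12.72, 9.54 and 9.60 in YEPD and 13.49, 9.92 and 10.03 in YEPME and was 3.33 ± 0.10 higher (adjusted p = 4.07e-05). dak2 (SPAC977.16C), for a dihydroxyacetone kinase that acts after Gld1, read 11.85, 6.77 and 6.45 in YEPD and 11.55, 8.13 and 8.05 in YEPME, a difference of 4.35 ± 0.41 (adjusted p = 5.48e-04), and dak1 (SPAC22A12.11), for the other kinase, differed by 1.66 ± 0.07 (adjusted p = 6.38e-05). All 4 of these genes were thus higher on both replicate 1 arrays. adh4 (SPAC5H10.06C), for an alcohol dehydrogenase, was lower, with 9.70, 11.70 and 11.77 in YEPD and 10.44, 11.59 and 11.57 in YEPME (-1.59 ± 0.20, adjusted p = 0.0016).

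fbp1 (SPBC1198.14C), for fructose-1,6-bisphosphatase of gluconeogenesis and the classical glucose-repressed reporter gene, did not follow them. It read 9.18, 9.36 and 9.41 in YEPD and 11.34, 9.72 and 9.80 in YEPME. Replicate 1 was slightly below the others in YEPD and above them in YEPME (-0.20 in YEPD and 1.57 in YEPME), and the difference over both media was not called (0.69 ± 0.40, adjusted p = 0.176). The gal7 gene (SPBPB2B2.10C), for galactose-1-phosphate uridylyltransferase of galactose use, was among the 12 largest rises, with 12.65, 8.98 and 9.09 in YEPD and 12.19, 9.27 and 9.30 in YEPME and a difference of 3.26 ± 0.17 (adjusted p = 1.11e-04).

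Many components of the glucose-sensing pathway were also higher. Of 25 measured genes of glucose sensing and repression, 17 were higher, 8 of them at least 2-fold, and 2 were lower (median 0.60). gpa2 (SPAC23H3.13C), for the G protein alpha subunit that signals glucose, read 10.30, 8.62 and 8.63 in YEPD and 11.48, 8.91 and 8.89 in YEPME, a difference of 2.13 ± 0.21 (adjusted p = 6.12e-04). git5 (SPBC32H8.07), for its beta subunit, differed by 2.25 ± 0.17 (adjusted p = 2.83e-04). pka1 (SPBC106.10), for the catalytic subunit of protein kinase A, read 11.98, 9.34 and 9.44 in YEPD and 11.58, 9.73 and 9.33 in YEPME, and cgs1 (SPAC8C9.03), for the regulatory subunit that holds it inactive, read 10.32, 8.31 and 8.35 in YEPD and 11.38, 8.51 and 8.65 in YEPME. Both were higher in replicate 1 on both arrays, by 2.32 ± 0.17 (adjusted p = 2.62e-04) and 2.39 ± 0.19 (adjusted p = 3.20e-04). The repressor gene scr1 (SPBC1D7.02C) was higher by 0.86 ± 0.13 (adjusted p = 0.0027), while rst2 (SPAC6F12.02), for the activator that opposes it, differed by 0.19 ± 0.08 and was not called (adjusted p = 0.093).

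Stress and storage genes were higher in the larger part. The core stress list had 23 of 33 genes higher, 19 of them at least 2-fold, and 6 lower, with a median of 1.26. ctt1 (SPCC757.07C), for catalase, read 12.50, 9.29 and 9.43 in YEPD and 13.43, 9.89 and 10.01 in YEPME, and its difference was 3.31 ± 0.10 (adjusted p = 4.16e-05). gst2 (SPCC965.07C), for a glutathione S-transferase, differed by 2.91 ± 0.07 (adjusted p = 3.64e-05) and lsd90 (SPBC16E9.16C) by 3.40 ± 0.24 (adjusted p = 2.47e-04). rsv1 (SPBP4H10.09), for a zinc finger protein needed for survival in stationary phase, read 7.28, 4.49 and 4.35 in YEPD and 8.98, 4.26 and 4.34 in YEPME and was not above background on any array of replicates 2 and 3. It was at least 10.04-fold higher in replicate 1 (adjusted p = 8.94e-04), where such a bound sets the bright group's mean against the lowest signal that counts as above background or the dim probe's own, whichever is higher. The kinase and transcription factor of the stress pathway, sty1 (SPAC24B11.06C) and atf1 (SPBC29B5.01), were higher by 0.59 ± 0.07 (adjusted p = 0.0015) and 1.50 ± 0.06 (adjusted p = 6.41e-05). cta3 (SPBC839.06), for a cation-pumping ATPase, went against the list, with 6.22, 8.71 and 8.85 in YEPD and 6.37, 8.54 and 8.61 in YEPME and a difference of -2.38 ± 0.10 (adjusted p = 6.72e-05).

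Of 4 measured trehalose and glycogen-like storage genes, 3 were higher (median 1.39). tps1 (SPAC328.03), for trehalose-6-phosphate synthase, read 12.86, 10.93 and 10.89 in YEPD and 12.86, 11.25 and 11.25 in YEPME and ntp1 (SPBC660.07), for the trehalase that breaks the sugar down, read 12.04, 10.27 and 10.30 in YEPD and 12.18, 10.53 and 10.52 in YEPME. The synthetic and the degrading gene were thus both higher on both replicate 1 arrays, by 1.78 ± 0.09 (adjusted p = 9.58e-05) and 1.70 ± 0.05 (adjusted p = 3.97e-05).

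Iron uptake genes of the reductive route were lower in replicate 1, all 4 of them at least 2-fold (median -3.10). The ferric reductase gene frp1 (SPBC1683.09C), whose product frees iron at the cell surface, read 9.38, 12.37 and 12.39 in YEPD and 8.55, 11.89 and 11.97 in YEPME, a difference of -3.19 ± 0.10 (adjusted p = 4.16e-05). fio1 (SPAC1F7.08), for the multicopper ferroxidase, read 8.87, 11.58 and 11.57 in YEPD and 8.49, 11.39 and 11.39 in YEPME (-2.81 ± 0.06, adjusted p = 3.64e-05), and fip1 (SPAC1F7.07C), for the iron permease that works with it, read 8.09, 11.62 and 11.66 in YEPD and 7.55, 11.38 and 11.49 in YEPME (-3.72 ± 0.09, adjusted p = 3.83e-05). The related reductase gene frp2 (SPBC947.05C) read 6.66, 9.63 and 9.70 in YEPD and 6.26, 9.23 and 9.30 in YEPME (-3.01 ± 0.05, adjusted p = 2.93e-05). For each of the 4 genes both replicate 1 arrays lay below all 4 others with a wide gap, and the difference was of similar size in YEPD and YEPME, from -3.01 in YEPD and -3.01 in YEPME for frp2 to -3.55 in YEPD and -3.89 in YEPME for fip1.

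Siderophore and haem uptake genes were mixed, with 2 of 5 higher and 3 lower. str1 (SPBC4F6.09), for a ferrichrome transporter, read 11.11, 12.38 and 12.41 in YEPD and 9.80, 12.11 and 12.04 in YEPME and was lower by a difference of -1.77 ± 0.22 (adjusted p = 0.0015). str3 (SPAC1F8.03C), whose product is linked to haem uptake, read 4.96, 8.21 and 8.16 in YEPD and 5.18, 7.49 and 7.64 in YEPME, which was not above background on either replicate 1 array. It was at least 4.87-fold lower there (adjusted p = 2.34e-04). The ferrichrome synthesis genes went apart, sib2 (SPAC23G3.03) with 1.04 ± 0.07 (adjusted p = 1.94e-04) and sib1 (SPAC23G3.02C) with -0.38 ± 0.11 (adjusted p = 0.0305), and str2 (SPCC61.01C) was slightly higher (0.27 ± 0.08, adjusted p = 0.0276). The call of sib1 was lost without YEPD replicate 3, YEPME replicate 2 or YEPME replicate 3, with each replicate number as a level (adjusted p = 0.0647) and with arrays centred on their median (adjusted p = 0.063). That of str2 was lost without YEPD replicate 1, 2 or 3 or YEPME replicate 1.

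**Figure D4:**
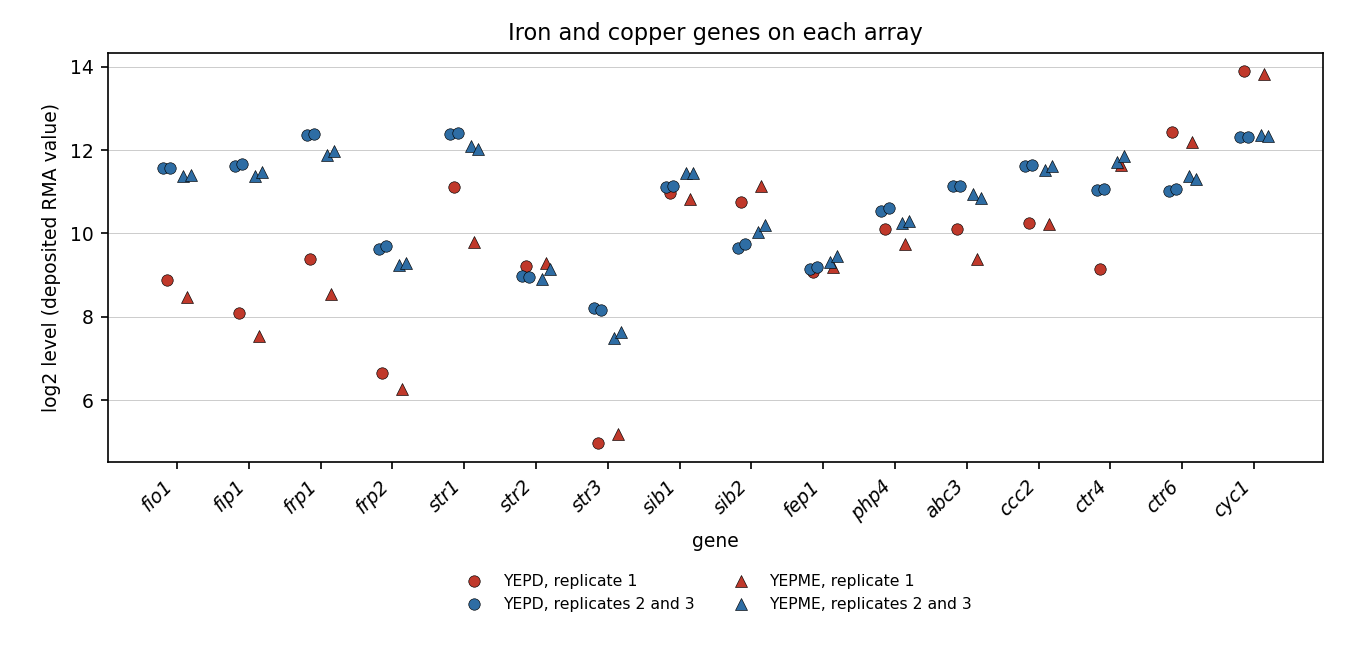
Deposited log2 level (vertical axis) of 16 iron and copper genes on each array, with replicate 1 in red, replicates 2 and 3 in blue, YEPD as circles and YEPME as triangles. The red points of fio1, fip1, frp1, frp2, str1 and str3 lie below the 4 blue ones, those of sib2, ctr6 and cyc1 lie above, and those of fep1 lie among or beside them.

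The genes of the iron regulators differed by small amounts. fep1 (SPAC23E2.01) read 9.09, 9.14 and 9.20 in YEPD and 9.19, 9.32 and 9.46 in YEPME and was not called (-0.14 ± 0.06, adjusted p = 0.0989). php4 (SPBC16E9.01C) read 10.11, 10.53 and 10.61 in YEPD and 9.74, 10.25 and 10.31 in YEPME and was lower in replicate 1 by a difference of -0.50 ± 0.05 (adjusted p = 8.11e-04). The copper sensor gene cuf1 (SPAC31A2.11C) differed by -0.09 ± 0.10 and was not called (adjusted p = 0.431); its sign turned under quantile normalization (0.0171). Beside 35.0% higher and 36.0% lower of all genes, 25% (4) were higher and 37.5% (6) lower in the list of 16 regulators and vacuolar iron genes (median -0.14). Among these abc3 (SPBC359.05), for a vacuolar ABC transporter, and ccc2 (SPBC29A3.01), for a copper pump that loads the ferroxidase, were lower by differences of -1.28 ± 0.12 (adjusted p = 4.97e-04) and -1.35 ± 0.05 (adjusted p = 5.66e-05). ctr6 (SPBC23G7.16), for the vacuolar copper exporter, was higher (1.12 ± 0.13, adjusted p = 0.0011). ctr4 (SPCC1393.10), for a copper transporter of the cell surface, read 9.15, 11.04 and 11.08 in YEPD and 11.65, 11.71 and 11.85 in YEPME; only the YEPD array of replicate 1 stood apart, and the gene was not called (-1.02 ± 0.40, adjusted p = 0.0682).

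Genes of iron-using enzymes that Php4 represses were mostly higher, 11 of 19 higher and 4 lower (median 0.45). cyt1 (SPBC29A3.18), for cytochrome c1, read 12.72, 10.88 and 10.89 in YEPD and 12.52, 11.000 and 10.99 in YEPME (1.69 ± 0.08, adjusted p = 1.00e-04), cyc1 (SPCC191.07), for cytochrome c, read 13.89, 12.31 and 12.31 in YEPD and 13.83, 12.37 and 12.34 in YEPME (1.53 ± 0.05, adjusted p = 4.19e-05), and rip1 (SPBC16H5.06), for the Rieske iron-sulphur protein, differed by 1.15 ± 0.05 (adjusted p = 8.88e-05). Both replicate 1 arrays were above the others for all 3 of these genes, which also belong to the respiratory chain, and the highest member, ctt1, also belongs to the stress list.

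Other nutrient lists were small, and their counts stand beside 35.0% of all genes higher and 36.0% lower. Of 12 zinc, copper and phosphate genes, 6 were lower and 2 higher (median -0.21), with the zinc transporter gene zrt1 (SPBC16D10.06) at 11.30, 12.10 and 12.17 in YEPD and 11.49, 13.07 and 13.05 in YEPME (-1.20 ± 0.17, adjusted p = 0.0023). Of 8 thiamine genes, 5 were lower and 0 higher (median -0.36), among them the thiamine transporter gene thi9 (SPAC9.10; -1.12 ± 0.25, adjusted p = 0.0114) and the thiamine-repressed acid phosphatase gene pho4 (SPBC428.03C; -1.05 ± 0.07, adjusted p = 1.95e-04). Of 19 nitrogen starvation and uptake genes, 8 were lower and 4 higher (median -0.26), a lower share of 42.1% that is near that of all genes, and under quantile normalization 6 were lower and 5 higher.

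Genes for ribosome assembly were lower in replicate 1. Of 54 measured genes of ribosome assembly and RNA polymerase I, 50 were lower, 34 of them at least 2-fold, 0 were higher and 4 were not called, with a median of -1.34 and a range from -2.32 to 0.12. Of all genes, 36.0% were called lower and 8.15% called at least 2-fold lower. nop16 (SPBC1539.10), for a nucleolar factor of the large subunit, read 8.79, 10.82 and 10.82 in YEPD and 7.47, 10.08 and 10.06 in YEPME (-2.32 ± 0.13, adjusted p = 1.43e-04). dbp3 (SPBC17D1.06), for an RNA helicase of rRNA processing, read 9.45, 11.47 and 11.45 in YEPD and 8.67, 10.99 and 11.01 in YEPME (-2.17 ± 0.08, adjusted p = 6.02e-05). Both replicate 1 arrays lay below all others for these genes, as they did for 51 of the 54 and for 38.3% of all genes. nop14 (SPBC3F6.04C), of the small subunit pathway, and nop52 (SPBC9B6.07), of rRNA processing, had differences of -2.13 ± 0.20 (adjusted p = 5.75e-04) and -2.11 ± 0.17 (adjusted p = 3.56e-04), and both were lower by more in YEPME than in YEPD. sda1 (SPBC106.14C), which in budding yeast acts in large subunit assembly and is among the 12 largest falls, read 8.22, 10.31 and 10.30 in YEPD and 6.84, 9.84 and 9.86 in YEPME (-2.55 ± 0.21, adjusted p = 3.69e-04).

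Ribosomal protein genes did not share that fall, and their direction rested on the scaling. As deposited, 75 of 118 cytosolic ribosomal protein genes were higher, 4 were lower and none differed 2-fold (median 0.18), but with quantile normalization of the S. pombe values 5 were higher and 35 lower. rps1402 (SPBC18H10.13) read 13.91, 13.50 and 13.45 in YEPD and 13.93, 13.54 and 13.51 in YEPME (0.42 ± 0.05, adjusted p = 9.00e-04), among the highest differences of the list, and rps2202 (SPAC5D6.01) read 11.56, 12.42 and 12.59 in YEPD and 11.46, 12.55 and 12.32 in YEPME, the lowest (-0.96 ± 0.09, adjusted p = 5.48e-04). rpl3202 (SPAC3H5.10) read 13.44, 14.82 and 14.83 in YEPD and 14.02, 13.78 and 13.81 in YEPME; replicate 1 was below the others in YEPD and above them in YEPME, and the gene was not called (-0.58 ± 0.36, adjusted p = 0.201). Ribosomal proteins are often encoded by near-identical gene pairs, whose probe sets can share signal. Translation factors had 10 of 23 lower and 2 higher (median -0.08). These counts also rested on the scaling, with 18 lower and 1 higher under quantile normalization (median -0.33) and 6 lower and 6 higher with arrays centred on their median.

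Genes for nucleotide and amino acid synthesis were mostly lower. Of 24 purine and pyrimidine genes, 20 were lower, 8 of them at least 2-fold, and 0 were higher (median -0.66). ade9 (SPBC2G2.08), for the enzyme that supplies one-carbon units to purine synthesis, read 9.44, 11.50 and 11.51 in YEPD and 9.71, 11.12 and 11.21 in YEPME (-1.75 ± 0.14, adjusted p = 3.71e-04). The uracil permease gene fur4 (SPAC1399.03) and ura5 (SPBC725.15), for orotate phosphoribosyltransferase, had differences of -1.49 ± 0.10 (adjusted p = 1.90e-04) and -1.44 ± 0.05 (adjusted p = 5.59e-05). Of 49 amino acid synthesis genes, 28 were lower and 8 higher (median -0.27). The enzymes of ammonium assimilation went apart: gln1 (SPAC23H4.06), for glutamine synthetase, read 12.15, 12.97 and 12.97 in YEPD and 11.76, 13.08 and 13.08 in YEPME and was lower (-1.07 ± 0.12, adjusted p = 9.38e-04), and gdh1 (SPCC622.12C), for NADP-linked glutamate dehydrogenase, read 13.52, 11.66 and 11.67 in YEPD and 13.45, 11.77 and 11.78 in YEPME and was higher (1.77 ± 0.06, adjusted p = 4.45e-05).

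Genes of energy metabolism were mostly higher in replicate 1. Of 45 respiratory chain and ATP synthase genes, 38 were higher, 19 of them at least 2-fold, and 0 were lower (median 0.82). qcr6 (SPBC16C6.08C), for a subunit of the cytochrome bc1 complex, read 13.14, 11.49 and 11.50 in YEPD and 12.90, 11.49 and 11.51 in YEPME (1.53 ± 0.07, adjusted p = 8.62e-05). The highest of the list, etr1 (SPAC26F1.04C), is not a subunit of the chain but is annotated as a mitochondrial enoyl reductase, and read 12.17, 9.87 and 9.95 in YEPD and 12.14, 10.05 and 10.02 in YEPME (2.18 ± 0.06, adjusted p = 3.83e-05). Of 17 TCA cycle genes, 12 were higher and 2 lower (median 0.45), with cit1 (SPAC6C3.04), for citrate synthase, at 13.49, 11.96 and 11.996 in YEPD and 13.61, 12.06 and 12.04 in YEPME (1.53 ± 0.04, adjusted p = 4.07e-05) and fum1 (SPCC18.18C), for fumarase, at a difference of 1.20 ± 0.07 (adjusted p = 1.51e-04). Glycolysis and fermentation had 12 of 15 higher and 2 lower (median 0.41), 7 and 2 under quantile normalization. Mitochondrial ribosomal protein genes had 26 of 48 higher and 6 lower (median 0.21).

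Protein breakdown genes were mostly higher. Of 23 autophagy and vacuolar protease genes, 19 were higher and 0 lower (median 0.57). The autophagy genes atg20 (SPCC16A11.08) and atg4 (SPAC19B12.08) read 8.07, 6.74 and 6.96 in YEPD and 9.21, 6.99 and 7.14 in YEPME and 8.65, 7.25 and 7.39 in YEPD and 9.35, 7.39 and 7.58 in YEPME. Both were higher on both replicate 1 arrays, by 1.69 ± 0.22 (adjusted p = 0.0017) and 1.60 ± 0.14 (adjusted p = 4.54e-04). Of 27 proteasome genes, 24 were higher, none of them 2-fold, and 0 were lower (median 0.38), with rpn12 (SPBC16G5.01), for a subunit of the regulatory particle, at 0.72 ± 0.11 (adjusted p = 0.0033). The level of the S. cerevisiae probe sets moved with these small differences, by a median of 0.721, but at dim levels that few of these genes share. Brighter control probe sets were higher too, by 0.42 for bioD, 0.52 for cre and 0.72 for fission yeast rRNA, while bioB was lower (-1.72). Differences of the size seen in these genes thus also occurred in bright controls. The part of this in the gene differences was not tested.

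**Figure D5:**
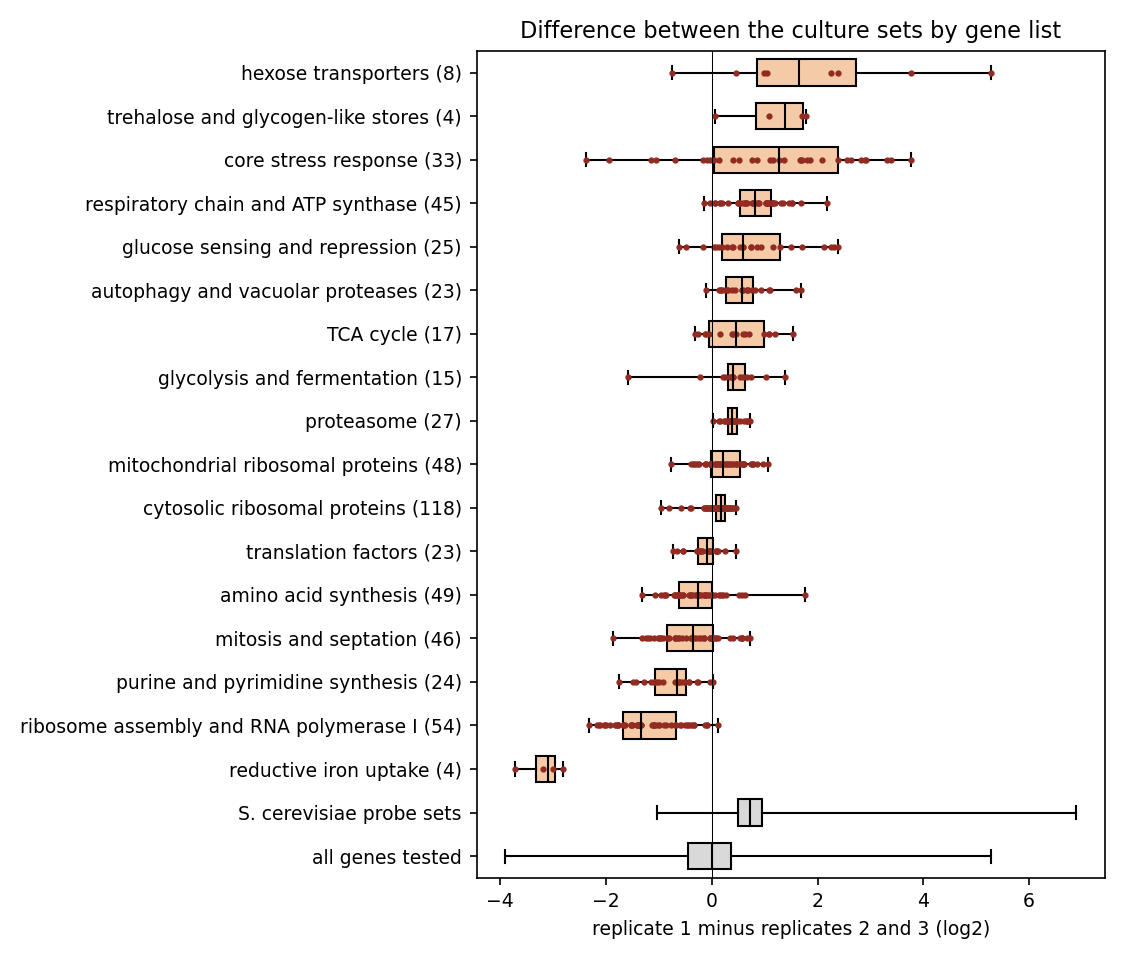
Difference between the sets (replicate 1 minus replicates 2 and 3, log2, horizontal axis) for 17 gene lists, with the number of measured genes in brackets, beside all genes tested and the S. cerevisiae probe sets; boxes span the quartiles with the median as a line, whiskers reach the extremes, and points are genes. Reductive iron uptake and ribosome assembly genes lie to the left of 0, and hexose transporters, stress and respiratory genes mostly to the right.

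Genes of the cell cycle differed in both directions. Of 46 mitosis and septation genes, 26 were lower, 7 of them at least 2-fold, and 8 higher (median -0.36). mbx1 (SPBC19G7.06), for a transcription factor of M-G1 genes, read 8.56, 10.14 and 10.19 in YEPD and 8.02, 10.15 and 10.16 in YEPME (-1.87 ± 0.13, adjusted p = 2.11e-04), and plo1 (SPAC23C11.16), for the polo kinase, read 8.97, 10.03 and 10.01 in YEPD and 8.32, 9.90 and 9.94 in YEPME (-1.33 ± 0.13, adjusted p = 6.32e-04). Both were lower on both replicate 1 arrays. Of 19 G1/S genes driven by the factor MBF, 10 were higher and 2 lower (median 0.19), and res2 (SPAC22F3.09C), for a subunit of MBF, differed by 1.55 ± 0.06 (adjusted p = 5.66e-05). Of 11 histone genes, 7 were higher and 1 lower (median 0.54), with the histone H4 gene hhf1 (SPAC1834.03C) at 0.92 ± 0.06 (adjusted p = 1.94e-04).

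Several M cell genes were higher in replicate 1, mainly on its YEPD array. In bulk RNA, fewer cells of a type and less RNA per cell cannot be told apart. Of 8 M cell genes, 4 were higher and 0 lower (median 0.90), and the log2 of their summed linear levels was 13.82 in YEPD replicate 1 against 11.96 and 11.99 in the others, but 12.35 against 12.19 and 12.20 in YEPME. mfm2 (SPAC513.03), for a precursor of the M-factor pheromone, read 13.10, 9.65 and 9.56 in YEPD and 10.68, 10.39 and 10.28 in YEPME. The YEPD array of replicate 1 stood alone, and the gene was not called over both media (1.92 ± 0.70, adjusted p = 0.0558). On that array mfm2 was the brightest of the 8 M cell genes and weighed most in their summed level. mfm1 (SPAPB8E5.05) read 7.72, 5.72 and 5.66 in YEPD and 5.66, 5.69 and 5.96 in YEPME, with the same single high array (0.93 ± 0.50, adjusted p = 0.146), and mfm3 (SPBPJ4664.03) was higher by 1.21 ± 0.23 (adjusted p = 0.0059). These 3 genes are related, and whether their probe sets share signal was not tested. mam1 (SPBC25B2.02C), for the M-factor exporter, read 10.81, 8.73 and 8.85 in YEPD and 9.73, 8.96 and 8.89 in YEPME (1.42 ± 0.28, adjusted p = 0.0069), and sxa2 (SPAC1296.03C), for the peptidase that degrades P-factor, differed by 0.87 ± 0.07 (adjusted p = 3.91e-04). The adhesin gene mam3 (SPAP11E10.02C) differed by 0.23 ± 0.05 (adjusted p = 0.0075), while mam2 (SPAC11H11.04), for the P-factor receptor, and mam4 (SPAC10F6.12C) were not called (0.40 ± 0.24, adjusted p = 0.19, and -0.18 ± 0.17, adjusted p = 0.384).

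Of 5 P cell genes, 1 was higher and 2 lower (median 0.09), where 35.0% and 36.0% of all genes were higher and lower. The summed level of the 4 P cell markers was 10.41 in YEPD replicate 1 against 10.04 and 10.05, and 10.59 against 10.52 and 10.55 in YEPME. map2 (SPCC1795.06), for the P-factor precursor, read 5.92, 6.67 and 6.66 in YEPD and 6.16, 7.04 and 6.87 in YEPME and was lower (-0.77 ± 0.06, adjusted p = 3.81e-04), as was map3 (SPAC3F10.10C), for the M-factor receptor (-0.38 ± 0.06, adjusted p = 0.0026). The adhesin gene map4 (SPBC21D10.06C) was higher (0.51 ± 0.07, adjusted p = 0.0022), and map1 (SPAC11E3.06) and sxa1 (SPAC26A3.01) were not called (0.29 ± 0.21, adjusted p = 0.266, and 0.09 ± 0.06, adjusted p = 0.196; the sign of sxa1 turned under quantile normalization, to -0.0438). Without the medium term in the fit the calls of map3, map4 and mam3 were lost (adjusted p = 0.103, 0.101 and 0.275). No marker of either mating type was absent, as all 12 were above background in both sets.

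The flocculin gene pfl8 (SPAC1F8.06), of the DIPSY cell wall protein family, had the largest fall of any gene tested. It read 7.60, 11.66 and 11.56 in YEPD and 7.73, 11.51 and 11.58 in YEPME. Both replicate 1 arrays were far below the other 4, in YEPD and YEPME alike (-3.91 ± 0.07, adjusted p = 2.93e-05), while map4 and mam3, the other measured members of the family, were higher. The other members of the family were not analysed here.

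Of 17 genes that start mating and meiosis, 6 were higher and 4 lower (median 0.13), shares of 35.3% and 23.5% that are near or under the 35.0% and 36.0% of all genes. ste11 (SPBC32C12.02), for the transcription factor that switches on mating, read 10.84, 11.75 and 11.79 in YEPD and 11.30, 11.92 and 11.99 in YEPME and was lower in replicate 1 (-0.79 ± 0.08, adjusted p = 6.19e-04). byr2 (SPBC1D7.05), for a MAP kinase kinase kinase of pheromone signalling, was higher by 1.62 ± 0.06 (adjusted p = 5.42e-05) and ste7 (SPAC23E2.03C) by 1.28 ± 0.14 (adjusted p = 8.31e-04). mei2 (SPAC27D7.03C), whose RNA-binding product is needed to enter meiosis, read 11.17, 9.34 and 9.38 in YEPD and 7.91, 9.45 and 9.45 in YEPME. The YEPD array of replicate 1 was above the others and its YEPME array below them, with differences of 1.81 in YEPD and -1.55 in YEPME that rest on 1 replicate 1 array each. The difference over both media was 0.13 ± 0.75 and was not called (adjusted p = 0.885). Its sign turned without YEPD replicate 1, 2 or 3.

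Later meiotic and spore genes gave no common direction. Of 26 meiotic recombination and cohesion genes, 7 were higher and 9 lower, and of 26 spore genes, 6 were higher and 12 lower. These are shares of 26.9% and 34.6% and of 23.1% and 46.2%, beside 35.0% and 36.0% of all genes. Of the 6 zygote and meiosis markers, 2 were higher and 1 lower, mei3 was not above background on either replicate 1 array, and their log2 summed level lay between 9.11 and 9.16 in replicate 1 and between 8.94 and 9.29 in the others. Of the 3 measured spore markers, 1 was higher, isp3 (SPAC1F8.05), for a spore coat protein, with 7.70, 5.37 and 5.10 in YEPD and 6.22, 5.23 and 5.52 in YEPME (1.65 ± 0.38, adjusted p = 0.0122). Both isp3 and the meiosis marker rec8 had a mean level of 4 to 6. S. cerevisiae probe sets of that level differed by a median of 0.709, with a 99th percentile of 1.664. The difference of isp3 lay just under that percentile, and that of rec8 (0.58) lay under the median. The spore wall gene meu10 (SPCC1223.12C) was higher by 1.77 ± 0.17 (adjusted p = 5.46e-04).

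The remaining genes of the largest differences came from several functions. mug108 (SPAC29A4.12C), a gene named for its rise in meiosis, read 10.26, 8.31 and 8.50 in YEPD and 13.46, 8.30 and 8.53 in YEPME. The YEPME array of replicate 1 was the highest and its YEPD array came next (3.45 ± 0.71, adjusted p = 0.0086). mug143 (SPAC167.06C) read 11.56, 8.38 and 8.44 in YEPD and 11.67, 8.47 and 8.60 in YEPME, with a similar difference in both media (3.14 ± 0.06, adjusted p = 2.93e-05). On the lower side, tlh2 (SPBCPT2R1.08C), for a RecQ-type helicase encoded near a chromosome end, read 8.11, 9.95 and 9.94 in YEPD and 5.89, 9.65 and 9.60 in YEPME (-2.79 ± 0.42, adjusted p = 0.0029), and mug8 (SPAC32A11.01) had a difference of -2.65 ± 0.22 (adjusted p = 3.71e-04). tlh2 belongs to a family of near-identical subtelomeric copies, whose signal its probe set can share. ppk31 (SPBC725.06C), for a protein kinase, had a difference of -2.42 ± 0.07 (adjusted p = 4.16e-05) and was above background on 1 of the 2 replicate 1 arrays. pyp2 (SPAC19D5.01), for a phosphatase of the stress kinase Sty1 and chosen after its values were seen, read 8.77, 8.05 and 8.18 in YEPD and 12.82, 8.17 and 8.25 in YEPME, so that 1 array, YEPME replicate 1, held most of its difference (2.63 ± 0.88, adjusted p = 0.043). Its call was lost without any one of the 4 arrays of replicates 2 and 3, and with each replicate number as a level (adjusted p = 0.0796).

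Genes often taken as constant were not all level. Of 15 common reference genes, 8 were higher and 3 lower (median 0.15), 5 and 4 under quantile normalization, and act1 (SPBC32H8.12C), for actin, read 13.88, 13.37 and 13.36 in YEPD and 13.78, 13.45 and 13.44 in YEPME (0.43 ± 0.06, adjusted p = 0.002). Of 26 ergosterol genes, 6 were higher and 7 lower (median 0.02), shares of 23.1% and 26.9% that are under the 35.0% and 36.0% of all genes.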

How the data were processed

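The values are log2 levels that the authors deposited for each probe set of 6 arrays, made with RMA and Partek per the submitters' processing notes. Versions and settings, and whether RMA ran on all arrays at once, were not given in the sources used here. Per the labels' protocols, biotin-labelled cRNA was made from 500 ng of total RNA per array.

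The values cover 10924 probe sets: 166 controls, 2914 with 1 S. pombe gene, 20 with several, 2600 for S. cerevisiae and 5224 unnamed. Names came from the platform annotation and RefSeq ASM294v3. The brightest probe set stood for each of 14 genes that have more than 1, which gave 2896 genes. Groups were taken from the medium in each sample's labels, and sets follow the replicate numbers in the titles.

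Limma 3.58.1 (R 4.3.3; lmFit and eBayes, two-sided, Benjamini-Hochberg) fitted the set with the medium as a block, leaving 3 residual degrees of freedom, and was tested on simulated data. Replicate numbers define the sets, so they entered as a random block, or as levels in place of the set. Other fits gave each medium its own set difference or compared replicates 2 and 3. Gene lists were described by counts and medians, with no set test. Lists hold only members with a named probe set of their own. The members and lists were chosen with earlier results of these data known.

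Named genes were the 12 largest differences each way among called genes whose sets do not overlap, all transporter, iron uptake and mating type genes, single regulators, and up to 4 called and 2 uncalled members per list. Alternatives covered scaling, background, filters, thresholds, probe sets, the medium term, the replicate block and leaving out each array.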

Additional observations from a re-analysis of the deposited data

Results flagged for a closer look

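A set difference that was not the same in both media set apart 68 of the genes named above that were above background on all arrays (limma interaction, adjusted p under 0.05, with 46.4% of all genes called). Values are the difference in YEPME minus that in YEPD, on the log2 scale. The largest were 3.95 for pyp2 (from 0.66 in YEPD and 4.61 in YEPME), -3.36 for mei2, 3.19 for mug108, -3.15 for mfm2 and -3.003 for ght3. With 1 replicate 1 array per medium, each lone array is assumed to vary like replicates 2 and 3, and a single culture or hybridization cannot be told apart from the medium.

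Among transporters and carbon genes the value was -2.32 for ght1, 0.78 for ght2, -0.95 for ght4, 0.69 for ght6 and 1.48 for ght8. It was -0.47 for inv1, 0.50 for mal1, -0.94 for meu7, -0.44 for gut2, -1.78 for dak2, 0.36 for gld1, -0.22 for dak1, 1.78 for fbp1, 0.89 for adh4 and -0.72 for gal7. Regulators and stress genes gave 0.48 for scr1, -0.30 for rst2, 0.81 for cgs1, 0.66 for git5, 0.91 for gpa2, -0.33 for tps1, 1.03 for lsd90 and 0.36 for cta3.

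Iron, copper and other nutrient genes gave -0.20 for fio1, -0.34 for fip1, -0.39 for frp1, -0.99 for str1, -0.47 for sib1, -0.47 for abc3, 1.78 for ctr4, -0.55 for ctr6, -1.08 for thi9 and -0.75 for zrt1. In growth genes it was -0.92 for sda1, -0.57 for nop16, -0.32 for dbp3, -0.89 for nop14, -0.75 for nop52, 1.61 for rpl3202, 0.61 for ade9, 0.38 for fur4, -0.18 for gdh1 and -0.50 for gln1. Respiration, protein breakdown and cell cycle genes gave -0.32 for cyt1, -0.25 for qcr6, 0.93 for atg20, 0.53 for atg4, -0.46 for rpn12, -0.55 for plo1, -0.53 for mbx1 and -0.18 for act1.

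Mating and spore genes gave -0.91 for map1, -1.21 for mam1, -1.07 for mam2, -0.73 for mam4, -2.20 for mfm1, -0.93 for mfm3, -0.26 for sxa2, 0.28 for ste11, -0.57 for ste7, -1.62 for isp3 and 0.67 for meu10. The 6 M cell genes here other than mfm2 all had a negative value, that is, replicate 1 stood higher against the other replicates in YEPD than in YEPME. The value was -1.90 for tlh2.

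The S. cerevisiae LEU2 probe set, which targets no fission yeast gene, was 6.89 higher in replicate 1, where the other 4 arrays include 1 above the background limit. Of 5224 probe sets that the annotation leaves unnamed, 2238 were above background in either set, and limma called 894 of them higher and 726 lower, 293 and 257 at least 2-fold.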

How the results depend on the processing

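With the replicate number as a random block (consensus correlation -0.79), limma called 1257 genes higher and 1271 lower; the negative correlation narrows the errors, and the block added calls to 12 named genes and removed none. With each replicate number as a level, it called 884 higher and 921 lower, and ght3, sib1 and pyp2 lost their calls (adjusted p = 0.0524, 0.0647 and 0.0796). For the set comparison, treat at 2-fold left 80 genes higher and 100 lower. The other planned settings kept its counts within 1.5 times, and leaving out 1 array gave 842 to 1189 higher, 895 to 1201 lower, 199 to 215 at least 2-fold higher and 234 to 251 at least 2-fold lower. Under quantile normalization 5 cytosolic ribosomal protein genes were higher; the cause was not tested. Of the 35 lists, a count moved by over 1.5 times in 6 under quantile normalization, in 6 with arrays centred on their median and in 1 with the S. cerevisiae level subtracted. The S. cerevisiae median difference was 0.79 with arrays centred on the S. pombe median.

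For the dependence on medium, an adjusted p under 0.01 left 254 genes higher and 337 lower, and treat at 2-fold 12 and 9. Leaving out 1 array of replicates 2 and 3, chosen after seeing the data, gave 256 to 604 higher and 336 to 835 lower. Between replicates 2 and 3, leaving out 1 array gave 0 to 17 genes higher and 0 lower, with 17 without either replicate 1 array.

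Some named genes turned sign. With the YEPD arrays alone, ght8 gave -0.28, fbp1 -0.20 and mam4 0.19. With the YEPME arrays alone, cuf1 gave 0.0641, map1 -0.17, mam2 -0.13, mfm1 -0.17, mei2 -1.55 and rpl3202 0.23. When arrays were left out in turn, the lowest and highest values were -0.28 and 1.19 for ght8, -0.20 and 1.57 for fbp1, -0.54 and 0.19 for mam4, -0.24 and 0.0641 for cuf1, -0.17 and 0.74 for map1, -0.13 and 0.94 for mam2, -0.17 and 2.03 for mfm1, -1.55 and 1.81 for mei2, and -1.39 and 0.23 for rpl3202. Under quantile normalization cuf1 gave 0.0171 and sxa1 -0.0438. None of these genes was called over both media. With 2 arrays against 4, and 1 against 2 in each medium, the comparison says nothing of further cultures, and the brighter background of replicate 1 limits what can be said of dim genes.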
